A study of Mus musculus with 6 samples.

Results

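Collagens are triple-helical proteins of the extracellular matrix, and their chains are encoded by a large gene family. The 36 mouse collagen genes described here were chosen by symbol, with earlier results of these data known, and all 36 were found among the 55414 gene identifiers of the count table. They comprise 11 fibrillar genes, 6 type IV genes of the basement membrane, 2 multiplexins, 6 FACIT genes (fibril-associated collagens with interrupted triple helices), 3 transmembrane genes, 3 type VI genes with the type XXVIII gene, 2 short-chain type VIII genes, and the type VII and type XXVI genes.

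RNA was sequenced from C2C12 cells, an established mouse myoblast line that can fuse into myotubes, kept in growth medium and recorded as genotype WT. The cells received an siRNA against Usf2, a transcription factor that binds E-box DNA (siUsf2 1 to 3), or a negative control siRNA, called siRNA-NC in the labels (siControl 1 to 3), by lipofection. The design addresses what changes in myoblasts with less Usf2. The labels do not say whether the libraries of a group came from separate cultures, so p-values measure the spread between these libraries, which may be technical.

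Total counts were 15817183 and 14932880 in siUsf2 1 and 2, 3414565 in the library labelled siUsf2 3, and 14790997 to 17715250 in siControl. Usf2 had 17.1 and 15.3 CPM (counts divided by the total of the library and put on a common scale) in siUsf2 1 and 2, 30.8 CPM in the library labelled siUsf2 3, and 26.2, 31.2 and 23.0 CPM in siControl 1 to 3. It was lower in siUsf2 1 and 2 than in every siControl library. The Usf2 level in the library labelled siUsf2 3 thus goes against its label, and that library is shown apart below. Its muscle differentiation markers, however, summed to 4580 CPM, below the 7367 to 8172 CPM of siControl. Within that list Tnnt3 and Mylpf lay above every siControl library there. Whether the label is right was not tested. Myoblast markers were present (all 7 detected, with a summed level of 1414 and 1413 CPM in siUsf2 1 and 2, 1752 CPM in the library labelled siUsf2 3 and 1547 to 1783 CPM in siControl). Of 8 fibroblast markers, Tcf21 was at 0 in all libraries, and Thy1, Lum, Pi16 and Dpt had at most 3.51 CPM in any library. The list summed to 559 and 520 CPM in siUsf2 1 and 2 and 594 to 651 CPM in siControl. Its sum was 562 CPM in the library labelled siUsf2 3. Pdgfrb, Pdgfra and Dcn made up most of it, at 368, 114 and 71.3 CPM in siUsf2 1. Of 6 macrophage markers, Adgre1 and Itgam were at 0 in every library and the list summed to 3.54 and 2.68 CPM in siUsf2 1 and 2, 0 in the library labelled siUsf2 3 and 1.69 to 4.19 CPM in siControl. The 6 endothelial markers summed to 5.06 and 4.89 CPM in siUsf2 1 and 2, 4.98 CPM in the library labelled siUsf2 3 and 3.99 to 4.85 CPM in siControl.

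Collagen chains assemble in the endoplasmic reticulum as trimers of like or unlike chains. Fibrillar collagens form the load-bearing fibrils, type IV forms the sheet of the basement membrane that surrounds each muscle fibre, and type VI forms beaded microfibrils that link the basement membrane to the matrix around it. FACIT collagens sit on the surface of fibrils, and the transmembrane collagens are anchored in the plasma membrane. In skeletal muscle most matrix is made by fibroblasts, while myoblasts in culture also transcribe collagen genes.

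Stretches of regulatory sequence are given because USF proteins bind the E-box CACGTG, and because the genes they belong to frame the results: the gene with the greatest fold rise, the most abundant gene, and a pair that shares a start region. They come from RefSeq on GRCm38.p6 and are written 5′ to 3′ on the plus strand. Those of Col24a1 and Col3a1 are the 250 bases before the start site (chr3:145292222-145292471 and chr1:45311288-45311537), with every CANNTG, the general E-box pattern, in capitals. The last is the 22-base overlap between the first exons of Col4a1, on the minus strand, and Col4a2, on the plus strand (chr8:11312805-11312826).
Col24a1: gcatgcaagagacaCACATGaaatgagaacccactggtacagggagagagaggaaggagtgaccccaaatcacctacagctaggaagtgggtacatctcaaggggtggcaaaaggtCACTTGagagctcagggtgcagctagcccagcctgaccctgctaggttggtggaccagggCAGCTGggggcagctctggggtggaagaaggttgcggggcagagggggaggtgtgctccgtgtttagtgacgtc
Col3a1: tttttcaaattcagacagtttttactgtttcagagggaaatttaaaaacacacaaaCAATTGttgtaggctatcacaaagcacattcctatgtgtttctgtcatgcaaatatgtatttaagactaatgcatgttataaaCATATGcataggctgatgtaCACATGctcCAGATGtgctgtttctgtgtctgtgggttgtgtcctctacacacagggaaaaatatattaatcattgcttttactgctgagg
Col4a1 and Col4a2: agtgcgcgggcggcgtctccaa

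RefSeq windows of 250 bases before to 50 bases after a start site were matched for 28 of the 36 genes, giving 30 windows. The table held none for Col1a1, Col2a1, Col4a3, Col5a2, Col12a1, Col14a1, Col22a1 and Col26a1. None of the 30 held CACGTG, a palindrome that reads the same on both strands, against 9.74% of the 13438 windows of genes tested in the 5-library comparison and 7.15% of all 32851 windows. CANNTG, which contains CACGTG as a special case and also reads the same on both strands, was found in 15 of the 30, or 50%, against 64.3% of windows of tested genes. The match is of letters only, and says nothing of binding inside or outside these windows.

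The collagen genes together took 1.09% and 1.04% of all counts in siUsf2 1 and 2, against 0.961%, 0.906% and 0.977% in siControl 1 to 3. The share was 1.76% in the library labelled siUsf2 3. Fibrillar genes held 0.576% and 0.583% of counts in siUsf2 1 and 2 and 0.545%, 0.559% and 0.564% in siControl 1 to 3, so siUsf2 1 and 2 lay just above every siControl library. FACIT genes, nearly all of it Col12a1, held 0.235% and 0.186% in siUsf2 1 and 2 and 0.147%, 0.10% and 0.167% in siControl 1 to 3. Type IV genes held 0.0451% and 0.0462% in siUsf2 1 and 2, within the 0.0417% to 0.0504% of siControl. In cultures measured as a whole, a change in the number of cells that make a collagen and a change in its RNA per cell cannot be told apart.

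**Figure D1:**
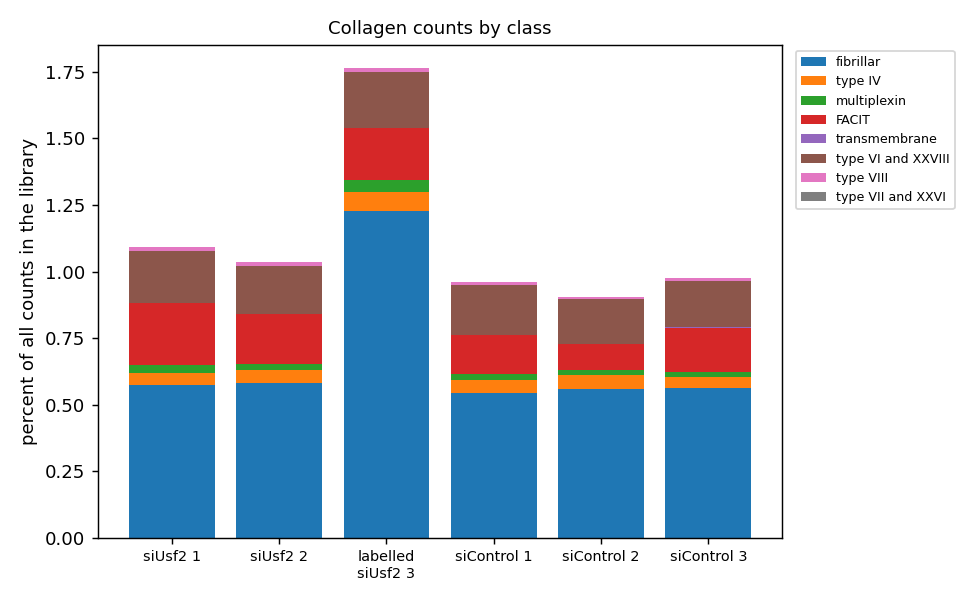
Stacked bars give the percent of all counts in each library that fell on the 36 collagen genes, by class. Fibrillar genes formed the largest block in every library, and the library labelled siUsf2 3 stood highest, at 1.76%.

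Levels of different genes were compared as RPKM, the CPM of a gene divided by the kilobases of its merged exons. Col3a1, the chain of type III collagen and a homotrimer of compliant tissue, was the most abundant member, at 309 ± 0.665 RPKM in siUsf2 1 and 2 and 317 ± 11.0 RPKM in siControl (SD, n = 2 and n = 3). Col6a1 came next, at 142 ± 0.45 RPKM in siUsf2 1 and 2 and 162 ± 3.79 RPKM in siControl. In siControl it was followed by Col12a1 at 88.6 ± 22.5 RPKM, Col5a2 at 73.1 ± 4.04 RPKM, Col1a2 at 66.7 ± 0.895 RPKM, Col5a1 at 66.6 ± 3.84 RPKM and Col6a3 at 57.9 ± 7.44 RPKM. From Col12a1 to Col6a3 the ranges of 1 SD either side of the mean overlapped between neighbours in this order, except between Col5a2 and Col1a2. Col6a2, Col1a1, Col4a2, Col4a1 and Col18a1 lay between 27.1 and 43.7 RPKM in siControl, and Col8a1 and Col5a3 at 12.8 and 11.0 RPKM. With the length of the longest transcript in place of merged exons, Col1a2 stood at 155 RPKM in siControl, between Col6a1 at 173 RPKM and Col12a1 at 117 RPKM.

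**Figure D2:**
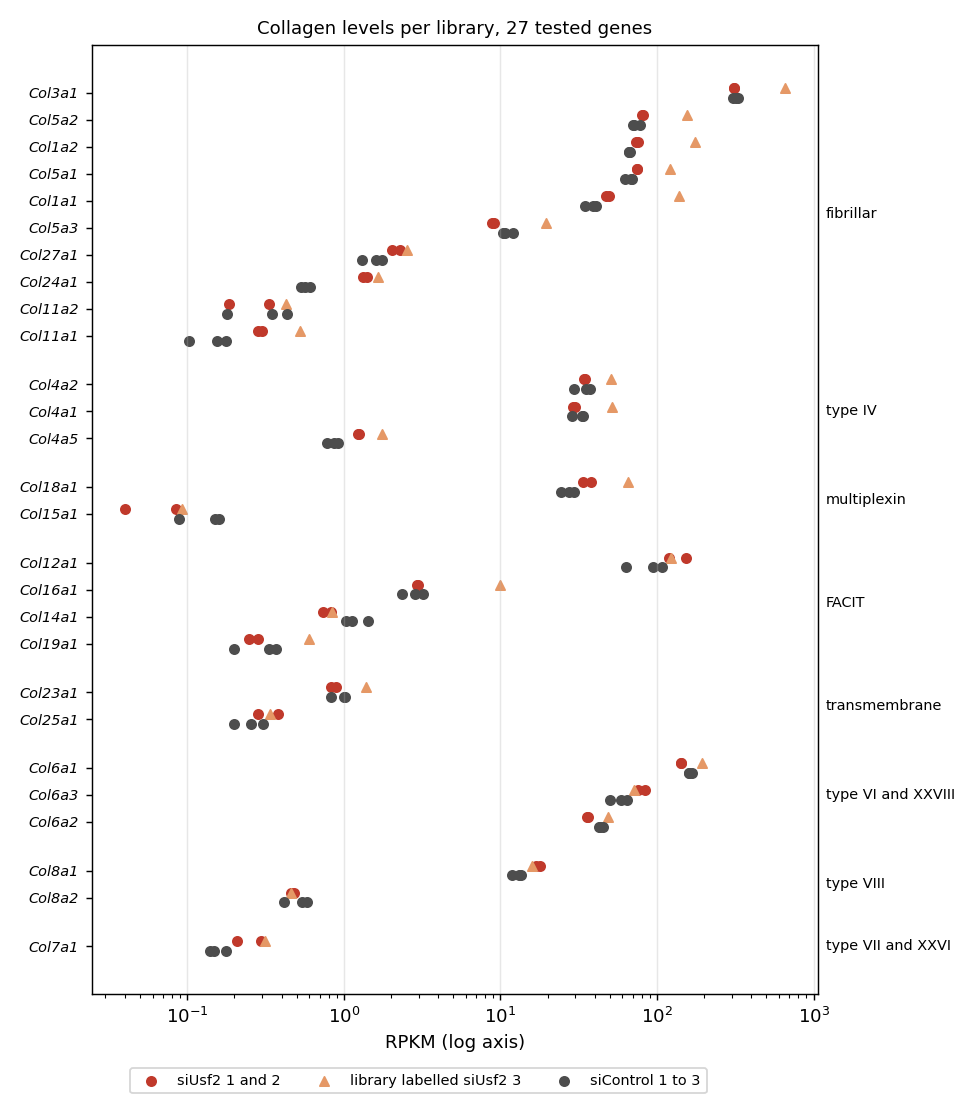
Levels in RPKM on a log axis are shown for the 27 collagen genes tested, grouped by class, with 1 point per library. Col3a1 stood highest in every library, and the library labelled siUsf2 3 lay above the other 5 for most of the abundant fibrillar genes.

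The other members were rare. Col2a1 of cartilage, Col4a3, Col4a4 and Col4a6 of specialised basement membranes, Col20a1, Col22a1 of the myotendinous junction, Col13a1 of the neuromuscular junction, Col28a1 and Col26a1 had between 0 and 19 counts in any library. These 9 genes did not pass the filter on low counts and were not tested. Col4a6 was at 0 in 4 of the 6 libraries, where a count of 0 allows a level of 0.169 CPM in siControl 3, the deepest, and 0.879 CPM in the library labelled siUsf2 3. Col13a1 was at 0 in 5 of the 6, with 2 counts in siControl 3. Intervals and limits given for single libraries cover counting error only.

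With siUsf2 1 and 2 against siControl, 7 of the 27 tested collagen genes rose and 2 fell (edgeR quasi-likelihood test, adjusted p below 0.05, two-sided), against 4.97% of all 17217 genes tested that rose and 6.4% that fell. The median log2 fold change was 0.13 over the 27 genes and -0.01 over all genes tested. In 18 of the 27 genes the siUsf2 1 and 2 and siControl libraries did not overlap (13 higher, 5 lower), against 41.3% of all genes tested. Among the called genes, Col24a1 and Col11a1 had fold changes of 2.37 and 1.98, and the others lay between 0.805-fold and 1.38-fold. With upper-quartile normalization the split of all calls turned to 1124 higher (6.53%) and 900 lower (5.23%), against 855 higher and 1102 lower with TMM, while 7 collagen genes rose and 1 fell. DESeq2 called 6 of 26 collagen genes higher and 2 lower in the 5 libraries, against 4.81% and 6.12% of the 15214 genes with a DESeq2 adjusted p. With all 6 libraries, 0 collagen genes of 26 tested passed, against 0% of 16662 genes that rose and 0.042% that fell. There, 9 of the 26 had an unadjusted p below 0.05 (8 higher, 1 lower), against 10.5% of all genes tested, and DESeq2 called 3 higher, namely Col24a1, Col11a1 and Col8a1, and 0 lower, against 1.79% of the 16516 genes with a DESeq2 adjusted p that it called higher and 2.48% lower.

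Muscle differentiation markers moved with the groups: 14 of 15 tested fell with siUsf2 1 and 2, against 6.4% of all genes tested. The 16 genes of the list summed to 3273 and 3641 CPM in siUsf2 1 and 2, 4580 CPM in the library labelled siUsf2 3, and 7639, 7367 and 8172 CPM in siControl 1 to 3. The part of this shift in the collagen values was not tested. Long transcripts also differed between libraries. This was measured in the 469 protein-coding genes with a longest transcript of at least 9 kb. Their median log2 difference between siUsf2 1 and 2 and siControl was 0.14. Against the siControl mean, the medians of these genes were 0.137 and 0.143 in siUsf2 1 and 2. They were 0.040, -0.14 and 0.105 in siControl 1 to 3. Among the siControl libraries, siControl 2 thus sat lowest, and siControl 3 lay close to siUsf2 1 and 2. The library labelled siUsf2 3 stood at -0.17, opposite in sign to siUsf2 1 and 2.

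**Figure D3:**
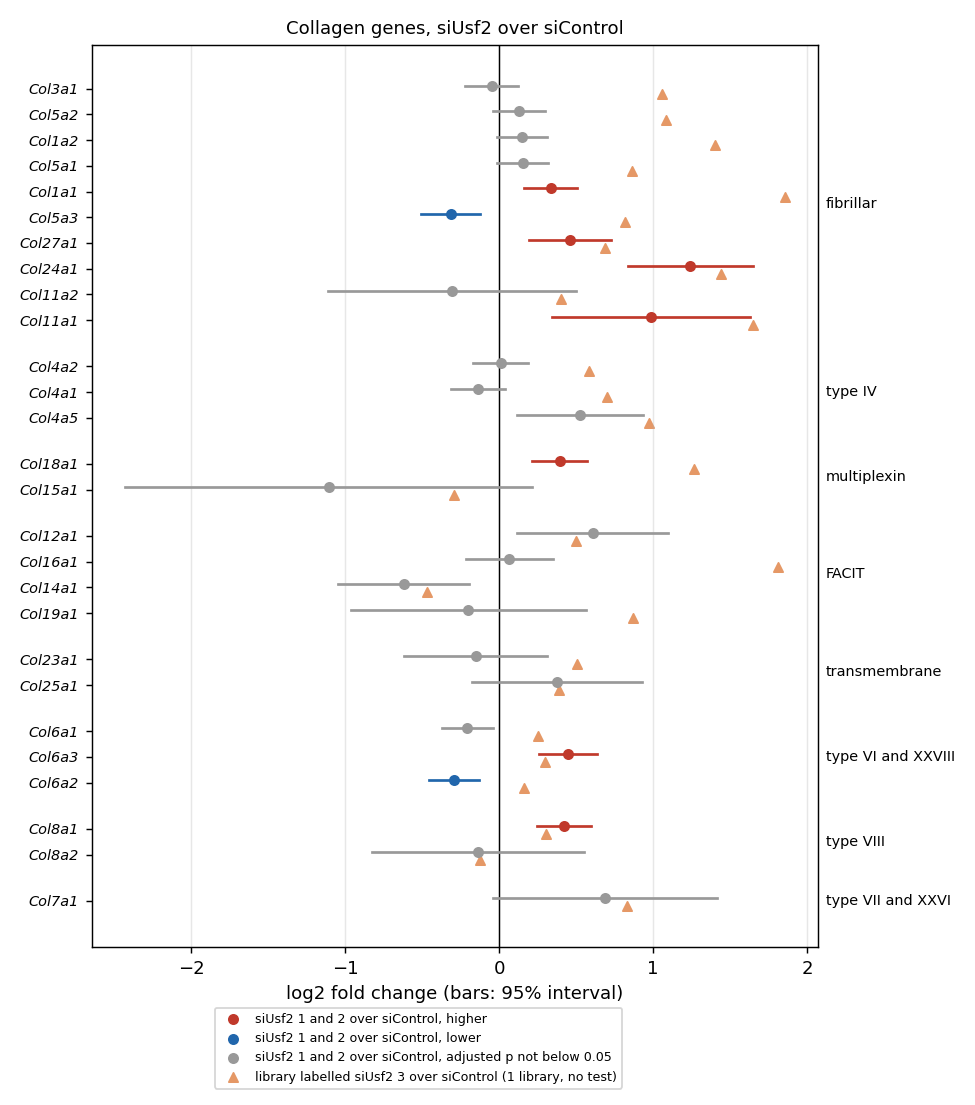
Log2 fold changes of siUsf2 1 and 2 over siControl are shown with 95% intervals (estimate and SE) for the 27 tested collagen genes, beside the log2 difference of the library labelled siUsf2 3 from the siControl mean. The 7 genes that rose and the 2 that fell are coloured, and most values of the library labelled siUsf2 3 lie to the right of those of siUsf2 1 and 2.

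Among the fibrillar genes, 4 of 10 tested rose and 1 fell, against 4.97% and 6.4% of all genes tested, and the median over the 10 was 0.15 (log2 fold change). Among the 4 that rose, the fold changes were greatest for Col24a1 and Col11a1, both rare here, while Col11a2, also rare, did not pass. Col24a1 (ENSMUSG00000028197), a fibrillar collagen of developing bone and cornea, lies on the plus strand of chromosome 3 at 145292472 to 145552011 (GRCm38). It had 10.1 and 10.6 CPM in siUsf2 1 and 2, 12.6 CPM in the library labelled siUsf2 3 (95% Poisson interval 9.11 to 17.0), and 4.33, 4.06 and 4.63 CPM in siControl 1 to 3. Both siUsf2 1 and 2 lay more than 2 times above every siControl library, and so did the library labelled siUsf2 3, whose Usf2 was at the siControl level. The log2 fold change in the 5 libraries was 1.24 (standard error 0.21, adjusted p = 9.84e-05 by edgeR), and with all 6 libraries it was 1.31 (standard error 0.18, adjusted p = 0.0743 by edgeR).

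Col11a1 (ENSMUSG00000027966, chromosome 3, 114030540 to 114220718, plus strand) and Col11a2 encode chains of a collagen found in the thin fibrils of cartilage. Col11a1 had 3.60 and 3.82 CPM in siUsf2 1 and 2, 6.74 CPM in the library labelled siUsf2 3, and 1.96, 1.31 and 2.26 CPM in siControl 1 to 3. Both siUsf2 1 and 2 lay above siControl, on 57 counts each against 21 to 40 counts, and the library labelled siUsf2 3 lay above siControl on 23 counts of its smaller total. Its log2 fold change was 0.99 (standard error 0.33, adjusted p = 0.0480 by edgeR), a call that ended with DESeq2 (adjusted p = 0.0855) and without any 1 of siUsf2 1, siUsf2 2, siControl 1 or siControl 2 (adjusted p = 0.109 to 0.207). Its partner Col11a2 had 2.28 and 1.27 CPM in siUsf2 1 and 2, within the 1.24 to 2.97 CPM of siControl, and did not pass (log2 fold change -0.30, standard error 0.41, 95% interval -1.11 to 0.50).

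Col27a1 (ENSMUSG00000045672, chromosome 4, 63214004 to 63334991, plus strand), a fibrillar collagen of the growth plate, had 26.4 and 29.9 CPM in siUsf2 1 and 2, 32.8 CPM in the library labelled siUsf2 3, and 23.0, 20.99 and 16.9 CPM in siControl 1 to 3. The values of siUsf2 1 and 2 did not overlap those of siControl, and siControl 1 lay closest to them. The log2 fold change was 0.46 (standard error 0.14, adjusted p = 0.0253 by edgeR). The call ended without siUsf2 2 (adjusted p = 0.271) or without siControl 2 (adjusted p = 0.0640).

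Type I collagen, the main fibril former of tendon, bone and scar, is built from α1 and α2 chains. Col1a1 (ENSMUSG00000001506, chromosome 11, 94936224 to 94953042, plus strand) had 310.3 and 325 CPM in siUsf2 1 and 2, 904 CPM in the library labelled siUsf2 3, and 256, 267 and 226 CPM in siControl 1 to 3. It rose by 0.33 on the log2 scale (standard error 0.09, adjusted p = 0.0106 by edgeR), which no longer passed once siUsf2 2 was left out (adjusted p = 0.176). Col1a2 had 908 and 945 CPM in siUsf2 1 and 2, 2186 CPM in the library labelled siUsf2 3, and 819, 841 and 825 CPM in siControl 1 to 3. In siUsf2 1 and 2 it was above siControl as well, yet it did not pass, at a log2 fold change of 0.15 (standard error 0.08, interval -0.02 to 0.31, adjusted p = 0.277 by edgeR).

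Within a library, the ratio of partner chains does not depend on how the library is scaled. The ratio of Col1a1 to Col1a2 counts was 0.342 and 0.344 in siUsf2 1 and 2, against 0.312, 0.317 and 0.274 in siControl 1 to 3, with no overlap. It was 0.414 in the library labelled siUsf2 3, farther from siControl in the same direction. Even with 3 libraries a group an exact test over libraries cannot give a p below 0.1. With only siUsf2 1 and 2 in their group that limit is higher still, so these ratios are given as values.

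Col3a1 had 3032 and 3041 CPM in siUsf2 1 and 2, 6469 CPM in the library labelled siUsf2 3, and 2999.7, 3117 and 3216 CPM in siControl 1 to 3. The siUsf2 1 and 2 values lay inside the siControl range, and the log2 fold change was -0.05 (standard error 0.09, interval -0.22 to 0.13). An annotated miRNA gene overlaps 141 of the 9816 bases of Col3a1 exons on the same strand. Reads within those bases cannot be told apart under any strand setting of the counting, which is not known here. Type V collagen is buried in type I fibrils, where it starts their assembly. Its main chains Col5a1 and Col5a2 had 636 and 632 CPM, and 766 and 783 CPM, in siUsf2 1 and 2, each just above the 529 to 592 CPM and 676 to 746 CPM of siControl. Neither passed, with log2 fold changes of 0.15 (standard error 0.08) and 0.13 (standard error 0.09).

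Col5a3 (ENSMUSG00000004098, chromosome 9, 20770050 to 20815067, minus strand), a less common chain of type V, went the other way. It had 61.8 and 60.4 CPM in siUsf2 1 and 2, against 70.8, 82.2 and 72.7 CPM in siControl 1 to 3, and fell by 0.31 on the log2 scale (standard error 0.10, adjusted p = 0.0327 by edgeR). In the library labelled siUsf2 3 it stood at 133 CPM (interval 121 to 145), above every siControl library, and with all 6 libraries the sign turned, to 0.13 (standard error 0.32). The call ended with upper-quartile normalization (adjusted p = 0.0632) and without any 1 of siUsf2 1, siUsf2 2, siControl 1 or siControl 2 (adjusted p = 0.0575 to 0.219).

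In the basement membrane class, 0 of the 3 tested type IV genes passed edgeR, 1 having an unadjusted p below 0.05, and 0 passed with DESeq2. Over all 17217 genes tested in the 5 libraries, 4290 had an unadjusted p below 0.05 by edgeR. Col4a1 and Col4a2 encode the α1 and α2 chains of the common type IV trimer and overlap head to head on chromosome 8 in the 22 bases printed above. Col4a1 had 216 and 222 CPM in siUsf2 1 and 2, 387 CPM in the library labelled siUsf2 3, and 248, 253 and 215 CPM in siControl 1 to 3. Col4a2 had 227 and 231 CPM in siUsf2 1 and 2, 336 CPM in the library labelled siUsf2 3, and 235, 246 and 196 CPM in siControl 1 to 3. In siUsf2 1 and 2 both genes sat inside the siControl range, while the library labelled siUsf2 3 lay above every siControl library for both, with 5-library log2 fold changes of -0.13 (standard error 0.09, interval -0.31 to 0.04) and 0.01 (standard error 0.09, interval -0.17 to 0.19).

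The ratio of Col4a1 to Col4a2 counts was 0.95 and 0.962 in siUsf2 1 and 2, against 1.06, 1.03 and 1.09 in siControl 1 to 3. The siUsf2 1 and 2 ratios lay below all siControl ratios, but the library labelled siUsf2 3, at 1.15, lay above them. Col4a5, the chain mutated in human X-linked Alport syndrome, had 8.28 and 8.37 CPM in siUsf2 1 and 2, 11.7 CPM in the library labelled siUsf2 3, and 6.15, 5.81 and 5.25 CPM in siControl 1 to 3. Both siUsf2 1 and 2 were above siControl, as was the library labelled siUsf2 3, yet it did not pass (log2 fold change 0.53, standard error 0.21, adjusted p = 0.0992 by edgeR).

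The multiplexins, whose C-terminal fragments include endostatin, are found where basement membranes meet the matrix. Col18a1 (ENSMUSG00000001435, chromosome 10, 77052178 to 77166548, minus strand) had 266 and 238 CPM in siUsf2 1 and 2, 455 CPM in the library labelled siUsf2 3, and 208, 192 and 170.3 CPM in siControl 1 to 3. It rose by 0.39 on the log2 scale (standard error 0.09, adjusted p = 0.00386 by edgeR), and siUsf2 1 and 2 lay above every siControl library, as did the library labelled siUsf2 3. The call ended without siUsf2 1 (adjusted p = 0.131). Col15a1, a collagen of muscle and vessel basement membranes, had 4 and 8 counts in siUsf2 1 and 2, 2 in the library labelled siUsf2 3 and 9 to 17 in siControl, and did not pass (log2 fold change -1.11, standard error 0.68).

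Of the FACIT genes, 0 of 4 tested passed edgeR and 0 passed with DESeq2. By edgeR 1 had an unadjusted p below 0.05, against 4290 of all 17217 genes tested. Col12a1, which decorates type I fibrils and is mutated in a human myopathy, varied widely among the siControl libraries. It had 2326 and 1829 CPM in siUsf2 1 and 2, 1865 CPM in the library labelled siUsf2 3, and 1439.7, 970.4 and 1639 CPM in siControl 1 to 3. The values of siUsf2 1 and 2 were above all siControl libraries, as was that of the library labelled siUsf2 3, but siControl 2 lay far below siControl 1 and 3, and the log2 fold change of 0.61 (standard error 0.25) did not pass (adjusted p = 0.220 by edgeR). Without siControl 2 it was smaller, at 0.41, and passed (adjusted p = 0.0153 by edgeR). Its longest transcript has 11511 bases, and the deviation of siControl 2 was -0.44 against the siControl mean (log2), farther from 0 than the -0.14 median of the long genes.

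Col14a1, a FACIT of tendon and skin, had 5.18 and 5.83 CPM in siUsf2 1 and 2, 5.86 CPM in the library labelled siUsf2 3, and 7.23, 9.93 and 7.96 CPM in siControl 1 to 3. Both siUsf2 1 and 2 were below siControl, as was the library labelled siUsf2 3, and the log2 fold change of -0.62 (standard error 0.22) missed the threshold (adjusted p = 0.0612 by edgeR). Without siControl 3 it passed (adjusted p = 0.0398 by edgeR). Col16a1 and Col19a1 overlapped between siUsf2 1 and 2 and siControl, with log2 fold changes of 0.07 (standard error 0.15) and -0.20 (standard error 0.39). In the library labelled siUsf2 3 Col16a1 stood at 67.1 CPM, against 19.9 and 20.0 CPM in siUsf2 1 and 2 and 15.9 to 21.7 CPM in siControl.

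The transmembrane collagens were rare, and 0 of the 2 tested passed edgeR and 0 passed with DESeq2. By edgeR 0 of them had an unadjusted p below 0.05, against 4290 of all 17217 genes tested. Col23a1 had 5.12 and 4.75 CPM in siUsf2 1 and 2, 7.91 CPM in the library labelled siUsf2 3, and 5.81, 4.75 and 5.76 CPM in siControl 1 to 3 (log2 fold change -0.15, standard error 0.24). Col25a1, needed in mice for motor axons to enter muscle, had 4.93 and 3.68 CPM in siUsf2 1 and 2, 4.39 CPM in the library labelled siUsf2 3, and 2.56 to 3.95 CPM in siControl (log2 fold change 0.38, standard error 0.28). At these depths a change of about 1.3-fold, the size fitted for Col25a1, was not distinguishable from none, the interval of its log2 fold change running from -0.17 to 0.93.

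The type VI chains did not move together. Type VI microfibrils are built from α1, α2 and α3 chains, and mutations in any of the 3 genes cause congenital or adult muscle disease in humans. Col6a3 (ENSMUSG00000048126, chromosome 1, 90765923 to 90843971, minus strand) had 1004 and 906 CPM in siUsf2 1 and 2, 849.6 CPM in the library labelled siUsf2 3 (interval 819 to 881), and 773, 598 and 709 CPM in siControl 1 to 3. The library labelled siUsf2 3 lay between siUsf2 1 and 2 and siControl, which did not overlap, and Col6a3 rose by 0.45 on the log2 scale (standard error 0.10, adjusted p = 0.00234 by edgeR). With all 6 libraries the log2 fold change was 0.38 (standard error 0.13, adjusted p = 0.409 by edgeR).

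Col6a2 (ENSMUSG00000020241, chromosome 10, 76595762 to 76623630, minus strand) had 304 and 296 CPM in siUsf2 1 and 2, 408 CPM in the library labelled siUsf2 3, and 378, 362 and 353 CPM in siControl 1 to 3. It fell by 0.29 on the log2 scale in the 5 libraries (standard error 0.08, adjusted p = 0.0205 by edgeR), while the library labelled siUsf2 3 lay above every siControl library. The call ended without siUsf2 1, siUsf2 2 or siControl 1 (adjusted p = 0.206, 0.189 and 0.110). Its neighbour on chromosome 10, Col6a1, had 620.4 and 623 CPM in siUsf2 1 and 2, 846 CPM in the library labelled siUsf2 3, and 729, 704 and 698 CPM in siControl 1 to 3. Its siUsf2 1 and 2 values were below siControl, yet it did not pass (log2 fold change -0.21, standard error 0.08, adjusted p = 0.113 by edgeR), and without siControl 3 it did (adjusted p = 0.0431 by edgeR).

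The ratio of Col6a3 to Col6a1 counts, chosen after the values were seen, was 1.62 and 1.45 in siUsf2 1 and 2, against 1.06, 0.849 and 1.02 in siControl 1 to 3. The library labelled siUsf2 3 had a ratio of 1.00, within the siControl range. The ratio of Col6a1 to Col6a2 was 2.04 and 2.10 in siUsf2 1 and 2, 2.07 in the library labelled siUsf2 3, and 1.93, 1.95 and 1.98 in siControl 1 to 3, so these groups did not overlap but differed little. The longest Col6a3 transcript has 10106 bases, and Col6a3 deviated from the siControl mean by -0.21 in siControl 2 (log2), in the direction of the long genes. The part of transcript length in the Col6a3 change was not tested.

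**Figure D4:**
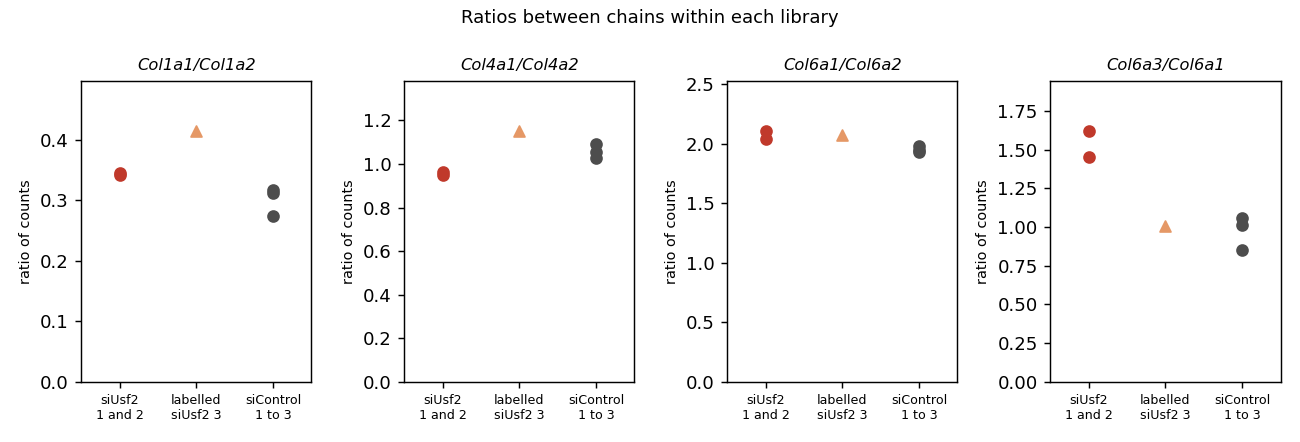
Ratios of counts between partner chains are shown within each library, with axes from 0. The Col6a3 to Col6a1 ratio separated siUsf2 1 and 2, at 1.62 and 1.45, from the other 4 libraries, at 0.849 to 1.06.

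Type VIII collagen forms a hexagonal lattice in the cornea and is made by vascular cells. Col8a1 (ENSMUSG00000068196, chromosome 16, 57624258 to 57754737, minus strand) had 139 and 133 CPM in siUsf2 1 and 2, 124 CPM in the library labelled siUsf2 3 (interval 113 to 137), and 102, 93.3 and 106 CPM in siControl 1 to 3. Both siUsf2 1 and 2 lay above every siControl library, and the library labelled siUsf2 3 lay between them and siControl. It rose by 0.42 on the log2 scale (standard error 0.09, adjusted p = 0.00182 by edgeR), and with all 6 libraries the log2 fold change was 0.36 (standard error 0.10, adjusted p = 0.281 by edgeR). Col8a2 overlapped between the groups, at 2.15 and 2.08 CPM in siUsf2 1 and 2 and 1.87 to 2.60 CPM in siControl (log2 fold change -0.14, standard error 0.35). Col7a1, the collagen of the anchoring fibrils of skin, had 3.03 and 2.14 CPM in siUsf2 1 and 2, 3.22 CPM in the library labelled siUsf2 3, and 1.83, 1.44 and 1.52 CPM in siControl 1 to 3, and did not pass (log2 fold change 0.69, standard error 0.37, adjusted p = 0.252 by edgeR).

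In the library labelled siUsf2 3, 23 of the 27 tested collagen genes lay above every siControl library, 1 below and 3 within the range. Of all genes tested, 38.5% lay above every siControl library in that library and 42.8% below. This comparison shares the siControl libraries with the 5-library comparison. The excess was greatest for Col1a1, Col16a1, Col11a1, Col24a1 and Col1a2, at log2 differences of 1.86, 1.81, 1.65, 1.44 and 1.4 from the siControl mean, while those of siUsf2 1 and 2 were 0.35, 0.09, 0.87, 1.17 and 0.16. Col1a1, Col16a1 and Col1a2 were thus far higher in that library than in siUsf2 1 and 2, and Col24a1 stood close to them.

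Most collagen genes are split into many short exons. Of the 27 tested, 25 were among the 4288 tested genes with the most exons per kilobase of the longest transcript, 3.93 or more. The exceptions were Col8a1 and Col8a2, with 4 exons each. Of those 4288 genes, 62.8% lay above every siControl library in the library labelled siUsf2 3. Over them, that library stood a median of 0.30 above siUsf2 1 and 2 on the log2(CPM + 0.5) scale, against -0.33 over the 4289 genes with the fewest exons per kilobase and 0.55 over the tested collagen genes. Across the 27 genes its difference from siUsf2 1 and 2 rank-correlated with exon density at a Spearman rho of 0.62, and across all 17153 annotated genes tested at 0.35. Genes share the library and are not independent replicates, so these are descriptions. The fold changes of siUsf2 1 and 2 over siControl had a rho of 0.01 with exon density across the 27 genes. The part of exon density in the values of the library labelled siUsf2 3 was not tested.

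**Figure D5:**
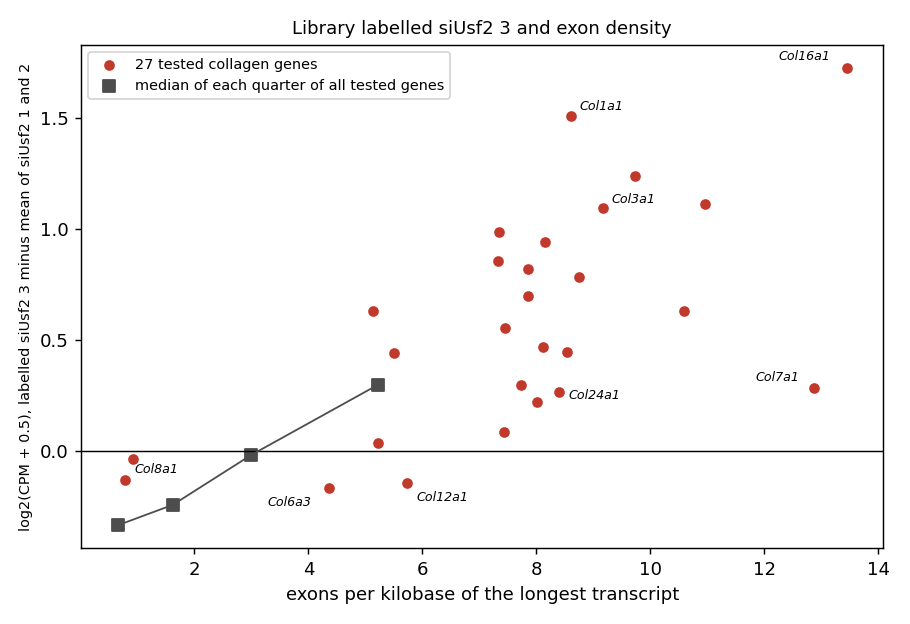
The log2 difference of the library labelled siUsf2 3 from the mean of siUsf2 1 and 2 is plotted against exons per kilobase, for the 27 tested collagen genes (circles) and as medians over 4 bins of all tested genes by exon density (squares). Col8a1, Col8a2, Col6a3 and Col12a1 lay below 0, and Col16a1 and Col1a1 highest, at 1.73 and 1.51.

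Genes that act on collagens were read from fixed lists, which had been chosen with earlier results of these data known. Of 22 tested genes of collagen folding, modification and trimming, 3 rose, 0 fell and 19 did not pass with siUsf2 1 and 2 (median log2 fold change 0.02). Among all genes tested in these 5 libraries, 4.97% rose and 6.4% fell. The 3 were the prolyl 4-hydroxylase subunits P4ha2 and P4ha3, which stabilise the triple helix, and the lysyl hydroxylase Plod2, which prepares cross-links. P4ha2 averaged 69.7 ± 5.90 CPM in siUsf2 1 and 2 and 51.2 ± 5.21 CPM in siControl (SD, n = 2 and n = 3; log2 fold change 0.43, adjusted p = 0.00464 by edgeR). In the library labelled siUsf2 3 P4ha2 stood at 110 CPM. Of 5 lysyl oxidases, the secreted enzymes that cross-link collagen, Loxl2, Lox and Loxl4 rose, by 0.88 (standard error 0.12), 0.40 (standard error 0.085) and 0.44 (standard error 0.12) on the log2 scale. Loxl2 had 36.8 and 34.4 CPM in siUsf2 1 and 2. In the library labelled siUsf2 3 it had 21.7 CPM, just above the 17.7 to 21.3 CPM of siControl. Lox averaged 864 ± 13.6 CPM in siUsf2 1 and 2 and 647 ± 33.7 CPM in siControl (SD, n = 2 and n = 3), and had 749 CPM in the library labelled siUsf2 3.

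Of 11 partners of type IV collagen in the basement membrane, 5 rose and 6 did not pass (median 0.23, log2 fold change), against 4.97% of all genes tested that rose. The 5 that rose were the laminin chains Lama4, Lamc1, Lama5 and Lamb2 and nidogen 1 (Nid1), which links laminin to type IV collagen. Nid1 averaged 497 ± 27.8 CPM in siUsf2 1 and 2 and 368 ± 29.5 CPM in siControl (SD, n = 2 and n = 3; log2 fold change 0.42, adjusted p = 0.00142 by edgeR), whereas Col4a1 and Col4a2 did not pass. The library labelled siUsf2 3 had 417 CPM of Nid1. Of 13 tested matrix partners, Thbs1, Thbs2 and Fn1 rose, by 0.51, 0.38 and 0.40, and 10 did not pass, with a list median of -0.02. Fn1, the fibronectin on which collagen fibrils are laid down, averaged 12307 ± 45.8 CPM in siUsf2 1 and 2 and 9242 ± 1322 CPM in siControl (SD, n = 2 and n = 3). It had 12310.5 CPM in the library labelled siUsf2 3.

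Of 7 tested collagen receptors, the kinase Ddr1 fell, at a log2 fold change of -0.32 (standard error 0.09, adjusted p = 0.0227 by edgeR), and 6 did not pass. Of all genes tested, 6.4% fell. In the library labelled siUsf2 3 Ddr1 stood at 200 CPM, above the 132 to 161 CPM of siControl. With all 6 libraries its log2 fold change was -0.07 (standard error 0.21). Of 6 tested genes of collagen breakdown, the collagenase Mmp13 fell, at a log2 fold change of -1.15 (standard error 0.27, adjusted p = 0.00546 by edgeR), and 5 did not pass. Mmp13 had 3.51 CPM in the library labelled siUsf2 3 and 6.29 to 10.8 CPM in siControl. Among the markers, Pdgfrb fell by 0.29 on the log2 scale while the other 5 tested fibroblast markers did not pass. In the library labelled siUsf2 3 Pdgfrb had 407 CPM, within the 404 to 476 CPM of siControl. Of the 7 myoblast markers, 2 rose and 3 fell, against 4.97% and 6.4% of all genes tested. With all 6 libraries no gene of these lists passed edgeR over all genes tested. The unadjusted p was below 0.05 for 3 genes each of the modification, lysyl oxidase and matrix partner lists, for 5 of the basement membrane partners, 11 muscle differentiation markers, 2 myoblast markers, 1 fibroblast marker and 1 breakdown gene, and for 0 receptors, endothelial or macrophage markers. The share with an unadjusted p below 0.05 was 10.5% over all genes tested.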

How the data were processed

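The members and gene lists were chosen with earlier results of these data known, as was the use of a 5-library comparison without the library labelled siUsf2 3. The deposited table holds whole-number read counts per Ensembl gene, not normalized by the authors. The submitters' processing notes list mm10 as the build, with HISAT2, featureCounts, Trimmomatic, FastQC and DESeq2, without versions or roles. How strand was handled is not given in the sources used here. The other deposited table, which holds these counts scaled to CPM, was left out. Symbols, coordinates, lengths and exons came from GENCODE M21 (GRCm38), which held 52081 of the 55414 identifiers.

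CPM and RPKM were computed from the counts. Both comparisons used edgeR 4.0.16 in R 4.3.3 on the whole table: filterByExpr, TMM, then glmQLFit with robust estimation and glmQLFTest (quasi-likelihood, two-sided), Benjamini-Hochberg adjusted over all genes tested, with calls at an adjusted p below 0.05. The SE is the log2 fold change divided by the root of the F statistic, and 95% intervals of fold changes are 1.96 SE either side. This normal multiplier makes the intervals narrower than the quasi-likelihood test implies. For Col12a1 the interval of 0.12 to 1.09 leaves out 0, at an unadjusted p of 0.0583 by edgeR. The fit was checked on counts simulated with the same dispersion for every gene and no shift particular to a single library. That check cannot speak to a library that stands apart. The biological coefficient of variation was 9.25% for 5 libraries and 40.0% for 6.

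Alternatives were RLE and upper-quartile normalization, DESeq2 1.42.0, other filters, an adjusted p below 0.01, a replicate block, and each library left out. Pseudogene transcripts were aligned to collagen transcripts with minimap2 2.31, and none matched at 90% identity, 50% coverage and 150 matching bases. Exons of 9 members overlap another annotated gene, by 563 bases at most. All members are accounted for; values in every library are given for called members and the most abundant of each class, and for others chosen after their values were seen. Protein features were not analysed here.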

Additional observations from a re-analysis of the deposited data

How the results depend on the processing

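With all 6 libraries, 0 rose and 0 fell by edgeR; DESeq2 called 3 higher, and leaving out 1 library gave 0 to 7 higher and 0 to 2 lower, the upper ends being those without the library labelled siUsf2 3. In the 5 libraries, 7 rose and 2 fell; leaving out 1 library gave 4 to 7 higher and 0 to 4 lower, and where 1 siUsf2 library remained it was assumed to vary like the siControl libraries. Upper-quartile normalization gave 1 lower, and a threshold of 0.01 gave 4 higher and 0 lower. Col24a1, Col6a3 and Col8a1 passed under every alternative run on the 5 libraries, the threshold of 0.01 included. The numbers do not pair the libraries (correlation of deviations -0.00 and 0.01 for pairs 1 and 2, and -0.07, -0.00 and -0.07 over 3 pairs). The fit with a replicate block, in which siControl 3 has no partner and drops out, called 9 higher and 5 lower in the 5 libraries, adding Col5a2, Col12a1, Col6a1, Col4a1 and Col14a1, and 0 with all 6; under it the log2 fold change changed sign to 0.0067 for Col19a1, -0.040 for Col16a1 and -0.077 for Col4a2, none of them called. Over all genes tested in the 5 libraries, against 855 higher and 1102 lower, the block gave 1719 and 2270, the threshold of 0.01 gave 398 and 540, and leaving out 1 library gave 349 to 1596 higher and 519 to 1964 lower. With all 6 libraries, against 0 higher and 7 lower, DESeq2 gave 296 and 410, and no filter on low counts gave 12 and 104. Leaving out 1 library changed the sign of some log2 fold changes that were not called with every library in: with all 6 libraries the range was -0.048 to 0.56 for Col3a1, -0.20 to 0.40 for Col19a1, -0.21 to 0.0081 for Col6a1, -0.13 to 0.31 for Col4a1, -0.31 to 0.31 for Col5a3, -0.15 to 0.19 for Col23a1 and -0.40 to 0.17 for Col11a2, and in the 5 libraries -0.034 to 0.18 for Col16a1, -0.070 to 0.073 for Col4a2 and -0.77 to 0.038 for Col11a2. Summed RPKM of the collagen genes in siControl was 1041 by merged exons, 1512 by the longest transcript, and 1034 to 1054 with 1 siControl library left out. For changes with no stated construction, the cause was not tested. Depth limits the rare members: 9 could not be tested, and the library labelled siUsf2 3 holds 3414565 counts.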
